A study of Homo sapiens with 6 samples.

Results

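The 54 genes described here encode the machinery that copies DNA: the proteins that mark and open replication origins, the helicase, clamp and polymerases of the fork, and the enzymes that supply nucleotides. They were chosen by gene symbol, and all 54 were found in the deposited table of 17269 genes and all 54 were abundant enough to be tested. The samples were HCT116 cells, an epithelial tumour line from a human colorectal carcinoma, in 6 poly(A) RNA sequencing libraries: 3 of cells labelled PRSS22 knockdown (shPRSS22) and 3 of cells labelled shCtrl in their titles and WT in their genotype. Both groups were grown in the same medium with 10% fetal bovine serum. PRSS22 encodes a secreted trypsin-like serine protease, and the comparison asks what changes in the transcriptome when its mRNA is depleted. The labels give neither the hairpin's sequence nor its duration in the cells, the number of clones or whether the libraries came from separate cultures, so p-values measure only the spread between these libraries, which may be technical.

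Replication origins are licensed in G1 phase, when the origin recognition complex (ORC), CDC6 and CDT1 load the MCM2-7 ring onto DNA. In S phase the kinase CDC7 with DBF4, MCM10, CDC45 and the GINS complex turn the ring into a moving helicase. DNA polymerases alpha, delta and epsilon then copy the strands. The sliding clamp PCNA holds polymerases delta and epsilon, while RPA covers single-stranded DNA. Many of these genes are transcribed under the control of E2F factors as cells enter S phase, so that their mRNA is high in dividing tumour lines. In bulk RNA, fewer cells in S phase and less RNA per cell cannot be told apart.

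PRSS22 itself had 3.09, 3.16 and 2.61 CPM in the shPRSS22 libraries, against 10.1, 9.38 and 10.1 CPM in the shCtrl libraries. CPM is the read count per 1000000 counts of the scaled library. This was a fall of 1.74 on the log2 scale (log2 fold change -1.74, SE 0.14, adjusted p = 4.78e-12 in edgeR's quasi-likelihood test, which also gives the adjusted p-values that follow unless another test is named). Library totals ranged from 14920523 to 15466647 counts. The epithelial markers EPCAM, CDH1, KRT8, KRT18, KRT19, CLDN4 and CDX2 were all present, summing, per 1000000 unscaled counts, to 4210 to 4451 CPM in shPRSS22 and 4329 to 4521 CPM in shCtrl. Of 15 markers of fibroblasts, immune and endothelial cells, 14 were in the table; CDH5 had no count, 10 more stayed under 10 counts in every library, COL1A1, CD68 and VWF were tested, and the list summed to 46.3 to 55.7 CPM in shPRSS22 and 39.6 to 48.9 CPM in shCtrl. Of these markers, CDH1 (log2 fold change 0.15, adjusted p = 0.000901) and CD68 (0.24, adjusted p = 0.0271) were higher in shPRSS22 and CLDN4 was lower (-0.25, adjusted p = 7.28e-07); the other 7 tested did not pass. Their part in the results for the replication genes was not tested.

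A single library stood apart for these genes. The library shPRSS22 replicate 3 was the lowest of the 6 for 37 of the 54 replication genes (68.5%), whereas among all 13104 genes tested it was the lowest for 20.2% and the highest for 21.2%. Results that rest on it are given with and without it.

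Across the 54 genes, 3 were higher and 11 lower in shPRSS22 at an adjusted p under 0.05, and 40 did not pass. Among all genes tested, 19.9% were higher and 19.3% lower. Of the replication genes 5.56% were higher and 20.4% lower with all 6 libraries. Without shPRSS22 replicate 3, 18.5% were higher and 14.8% lower, against 17.5% and 17.1% of all genes tested. With any other library left out, 1 or 2 of the 54 genes were higher. Replicate 3 was singled out by its low values in these same genes, so leaving it out was bound to raise their fold changes. The median log2 fold change of the 54 genes was -0.04, beside -0.01 over all genes tested, and values ranged from -0.53 to 0.31. Without shPRSS22 replicate 3 the median was 0.04. The genes that fell were MCM2, MCM4, MCM5 and MCM7 of the helicase ring, GINS2, WDHD1, RPA1, POLD2, LIG1, DUT and UNG, and those that rose were RFC1, RFC5 and RPA3. Groups did not overlap for 12 genes lower and 4 higher in shPRSS22, where 24.3% and 24.2% of all genes tested did so. Of the 40 genes that did not pass, 39 had a log2 fold change of less than 0.2 in size.

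**Figure D1:**
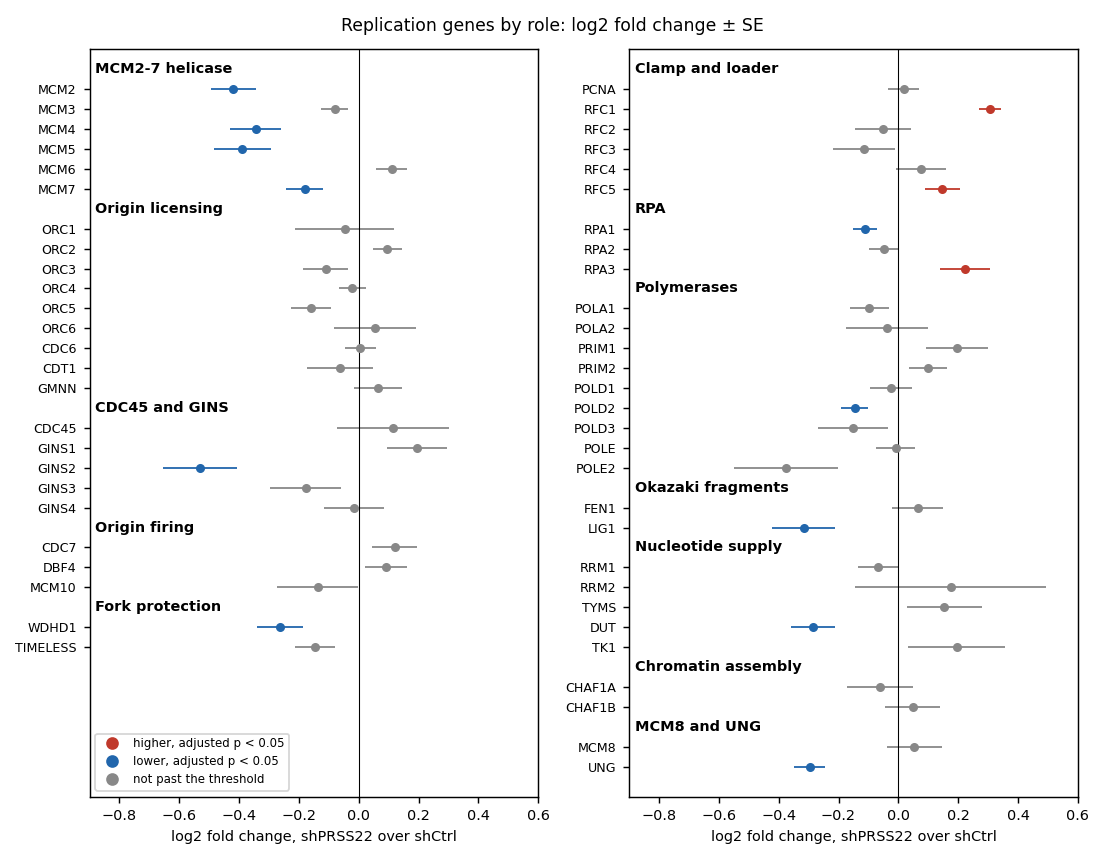
Log2 fold change, shPRSS22 over shCtrl, of each of the 54 replication genes with its standard error (bars), grouped by role; blue marks the 11 genes that were lower and red the 3 that were higher at an adjusted p under 0.05. The MCM2-7 ring holds 4 of the 11 blue points, more than any other role.

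Because many of these genes are known E2F targets, their promoters were searched for letters of the E2F type. RefSeq promoter windows (GRCh38.p14), reaching from 250 bases before to 50 bases after a transcript start, were matched for 48 of the 54 genes, and not for MCM4, MCM5, GINS4, RPA2, RPA3 and POLD3; 12 of the 48 had several windows. The words TTTCCCGC, TTTCGCGC, TTTGCCGC and TTTGGCGC were searched on both strands, and may overlap one another where they meet in a palindrome. At least 1 of them was in a window of 23 of 48 replication genes (47.9%), against 695 of 10570 tested genes with a window (6.58%) and 3.31% of all 35116 windows. The stretches below show the words in capitals, 5′ to 3′ on the gene's own strand. They are given for the 4 helicase genes that had a window with a word, of which MCM2 and MCM7 fell and MCM3 and MCM6 did not pass, and for some of the other genes that fell or that mark S phase; a match describes the letters and is not a bound site.

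MCM2, chr3:127598404-127598433, plus strand: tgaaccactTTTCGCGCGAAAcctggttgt
MCM3, chr6:52284728-52284757, minus strand: agttcggaagtTTTCGCGCcggggtggagt
MCM6, chr2:135876504-135876603, minus strand: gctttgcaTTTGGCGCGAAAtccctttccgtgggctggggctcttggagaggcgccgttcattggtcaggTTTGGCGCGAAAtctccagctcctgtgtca
MCM7, chr7:100101388-100101417, minus strand: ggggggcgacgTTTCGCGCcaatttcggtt
GINS2, chr16:85688967-85688996, minus strand: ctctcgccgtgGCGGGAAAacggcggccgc
DUT, chr15:48332152-48332181, plus strand: ctgGCGGGAAAtttcggtTTTGGCGCgctc
LIG1, chr19:48170440-48170469, minus strand: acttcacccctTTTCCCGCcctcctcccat
UNG, chr12:109098098-109098127, plus strand: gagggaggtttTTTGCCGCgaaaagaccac
PCNA, chr20:5126663-5126692, minus strand: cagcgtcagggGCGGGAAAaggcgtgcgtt
TYMS, chr18:657603-657632, plus strand: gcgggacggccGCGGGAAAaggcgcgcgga

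MCM2 and MCM6 show a like arrangement, in which a word on the gene's strand overlaps a word on the other strand. MCM6 holds it at 2 places upstream of its start, and MCM2 across bases 3 to 14 of its transcript. MCM2 fell and MCM6 did not pass. Whether these words bear on the level of either gene was not tested. Of the 23 genes with a word, 6 fell and 17 did not pass (median log2 fold change -0.08). Of the 25 genes whose windows held none, 3 fell, 2 rose and 20 did not pass (median 0.05). Beside these counts, 19.3% of all genes tested fell and 19.9% rose. The counts of the 2 sets are from all 6 libraries. Without shPRSS22 replicate 3, among genes with a word, MCM7 and LIG1 no longer passed as lower and MCM6, GINS1 and TYMS passed as higher. Among genes with none, RPA1 no longer passed as lower and PRIM1, FEN1, RRM2 and TK1 passed as higher. The difference between these 2 sets was not tested.

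The MCM2-7 ring is the motor of the replicative helicase, built from 6 related ATPase subunits. In it 4 of 6 genes fell (66.7%, against 19.3% of all genes tested). The median log2 fold change was -0.26, or -0.17 without shPRSS22 replicate 3. MCM2 had 29.7, 30.6 and 23.1 CPM in the shPRSS22 libraries, against 37.5, 36.6 and 37.4 CPM in the shCtrl libraries. All 3 shPRSS22 values lay below all 3 shCtrl values, and shPRSS22 replicate 3 was the lowest. The log2 fold change of MCM2 was -0.42 (SE 0.08, adjusted p = 0.00014), a change in level of -25.2%, and without shPRSS22 replicate 3 it was -0.30 (adjusted p = 0.000323). MCM2 lies on chromosome 3 from 127598223 to 127622436 (GRCh38, GENCODE 29). In that annotation 23.6% of its exonic bases are shared with exons of TPRA1 or AC023593.1, whose reads could not be separated without strand. The estimated counts of MCM2 carried no decimals in any of the 6 libraries.

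MCM5 had 14.87, 15.71 and 11.36 CPM in shPRSS22, against 18.7, 19.1 and 17.1 CPM in shCtrl, with no overlap (log2 fold change -0.39, SE 0.10, adjusted p = 0.00162). MCM4 had 33.9, 35.8 and 27.9 CPM in shPRSS22, against 44.8, 41.7 and 37.5 CPM in shCtrl, again with no overlap (-0.34, SE 0.09, adjusted p = 0.0054). Without shPRSS22 replicate 3 the log2 fold change was smaller, at -0.26 for MCM5 (adjusted p = 0.0204) and -0.24 for MCM4 (adjusted p = 0.00446). MCM4 pairs with MCM6 and MCM7 in the core of the ring. MCM7 changed less, with 61.4, 59.6 and 49.96 CPM in shPRSS22 against 65.5, 66.8 and 61.4 CPM in shCtrl (-0.18, SE 0.06, adjusted p = 0.0254). The highest shPRSS22 value and the lowest shCtrl value of MCM7 were almost equal, and MCM7 was lost without shPRSS22 replicate 3 (-0.09, adjusted p = 0.163), shCtrl replicate 1 (0.0923) or shCtrl replicate 2 (0.11).

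MCM3 and MCM6 did not pass with all 6 libraries, and MCM3 was nominally lower, on the same side as the 4 that fell. MCM3 had 103, 100.04 and 90.0 CPM in shPRSS22, against 106, 106 and 98.0 CPM in shCtrl, and the groups overlapped (-0.08, SE 0.05, adjusted p = 0.169). MCM6 was nominally higher, with 61.6, 62.6 and 55.4 CPM in shPRSS22 against 56.0, 57.6 and 52.7 CPM in shCtrl (0.11, SE 0.05, adjusted p = 0.0937). Without shPRSS22 replicate 3, MCM6 passed the threshold as higher (0.16, adjusted p = 0.0148).

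Because the deposited TPM values are scaled for transcript length, the subunits can also be set against each other within a library. MCM3 and MCM7 were the most abundant ring transcripts and MCM5 the least. MCM2 made up 8.91%, 9.22% and 8.21% of the summed MCM2-7 TPM in the shPRSS22 libraries, against 10.5%, 10.2% and 11.2% in the shCtrl libraries. MCM6 made up 16.8%, 17.1% and 17.9% in shPRSS22, against 14.2%, 14.6% and 14.4% in shCtrl. Neither pair of ranges overlapped, and shPRSS22 replicate 3, lowest for 37 of the 54 genes, lay with its group here. The MCM2 to MCM6 TPM ratio was 0.531, 0.539 and 0.459 in shPRSS22, against 0.737, 0.699 and 0.782 in shCtrl. Shares of MCM4 (8.27% to 8.98% in shPRSS22, 9.38% to 10.4% in shCtrl) and MCM5 (4.48% to 5.34% in shPRSS22, 5.65% to 5.84% in shCtrl) were also lower without overlap, that of MCM3 was higher without overlap (34.1% to 36.2% in shPRSS22, 33.3% to 33.5% in shCtrl), and that of MCM7 overlapped. A share shows unequal change and does not say which subunit moved.

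**Figure D2:**
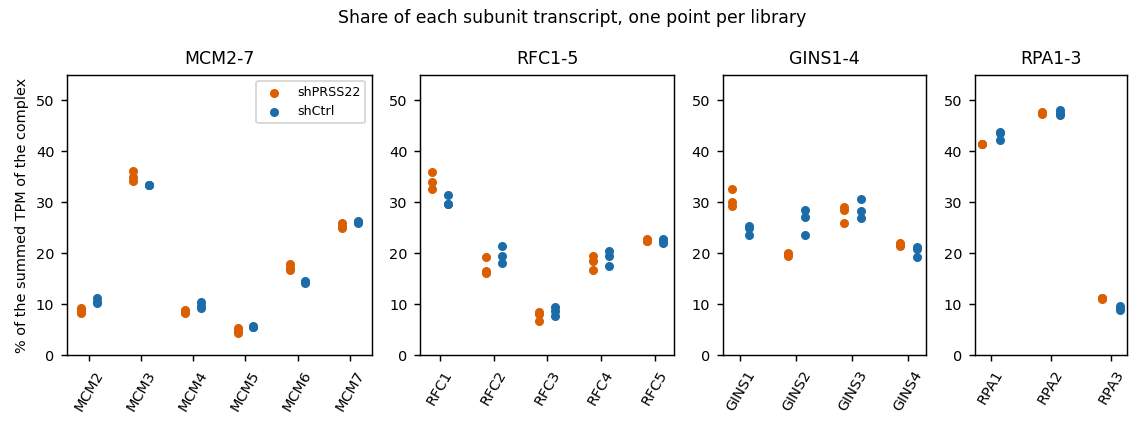
Share of each subunit's transcript in the summed TPM of its complex (vertical axis, %), with 1 point per library, shPRSS22 in orange to the left of shCtrl in blue. In the MCM2-7 ring the MCM6 share is higher in all 3 shPRSS22 libraries (16.8% to 17.9%) than in shCtrl (14.2% to 14.6%), and in GINS the GINS2 share is lower (19.5% to 20.1% against 23.5% to 28.5%).

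The licensing genes load the ring or, as with GMNN, hold its loading back. All 9 licensing genes failed to pass, with log2 fold changes between -0.16 and 0.10 and a median of -0.02. Not passing does not show that a gene was unchanged, and the SE reached 0.17 among the 9. Among all genes tested, 39.1% passed in either direction. At an unadjusted p under 0.05 edgeR gave 1 lower and 0 higher, DESeq2 called 0 of the 9, and the median was 0.06 without shPRSS22 replicate 3. CDC6, the ATPase that loads the ring together with ORC, had 52.0, 53.3 and 47.2 CPM in shPRSS22, against 50.3, 50.4 and 51.3 CPM in shCtrl (log2 fold change 0.00, SE 0.05). CDT1, which brings MCM2-7 to origins, had 19.9, 21.0 and 15.2 CPM in shPRSS22, against 20.03, 21.4 and 17.2 CPM in shCtrl (-0.06, SE 0.11). GMNN encodes geminin, which blocks CDT1, and its log2 fold change was 0.06 (SE 0.08). Its values ranged from 16.3 to 19.4 CPM in shPRSS22 and from 16.8 to 17.9 CPM in shCtrl.

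Of the ORC subunits, ORC5 came closest to the threshold. It had 25.2, 25.2 and 26.4 CPM in shPRSS22, against 26.8, 27.7 and 31.1 CPM in shCtrl, with no overlap (-0.16, SE 0.07, adjusted p = 0.0582), and it passed as lower without shCtrl replicate 1 (adjusted p = 0.0357), whereas leaving out shCtrl replicate 3 gave -0.09 (adjusted p = 0.362). ORC2 had 63.6 to 72.8 CPM in shPRSS22 and 62.9 to 64.2 CPM in shCtrl, with its highest value in shPRSS22 replicate 3, and passed as higher without shPRSS22 replicate 2 (0.14, adjusted p = 0.0221). ORC4, at 88.3 to 96.9 CPM in shPRSS22 and 87.7 to 97.9 CPM in shCtrl, had the most abundant licensing transcript per length (35.6 TPM on average), and ORC1 the least (2.51 TPM). ORC1, at 3.53 to 5.39 CPM in shPRSS22 and 4.07 to 5.15 CPM in shCtrl, had the widest SE of the licensing genes (0.17).

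GINS is a complex of 4 subunits that, with CDC45, activates the MCM ring. GINS2 had the largest fall of all 54 genes. It had 6.76, 6.77 and 5.75 CPM in the shPRSS22 libraries, against 9.81, 10.2 and 7.80 CPM in the shCtrl libraries, with no overlap. The log2 fold change was -0.53 (SE 0.12, adjusted p = 0.000919). It lies on chromosome 16, minus strand, at 85676198 to 85690073 (GRCh38, GENCODE 29), and its promoter, shown above, holds a single word of the E2F type.

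None of the partners GINS1, GINS3 and GINS4 was called, and GINS3 was nominally lower, as GINS2 was. GINS1 had 14.3, 12.8 and 11.4 CPM in shPRSS22, against 10.5, 12.4 and 10.7 CPM in shCtrl, and was not called (0.20, SE 0.10, adjusted p = 0.126). GINS3 ranged from 6.47 to 7.82 CPM in shPRSS22 and from 7.41 to 8.39 CPM in shCtrl (-0.18, SE 0.12), GINS4 from 9.34 to 11.0 CPM in shPRSS22 and from 10.0 to 10.6 CPM in shCtrl (-0.02, SE 0.10). The GINS2 to GINS1 TPM ratio was 0.612, 0.687 and 0.651 in shPRSS22, against 1.21, 1.07 and 0.942 in shCtrl. GINS1 transcripts therefore outnumbered GINS2 transcripts in all 3 shPRSS22 libraries, and the order was the opposite in 2 of 3 shCtrl libraries. CDC45 was among the scarcest transcripts, at 2.74 to 3.29 CPM in shPRSS22 and 2.47 to 3.37 CPM in shCtrl (0.11, SE 0.19).

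The 3 factors that fire origins were not called in either direction by edgeR or DESeq2, and 0 of 3 had an unadjusted p under 0.05 in edgeR. CDC7, the S phase kinase that phosphorylates MCM proteins, had 20.3, 21.3 and 19.5 CPM in shPRSS22, against 20.2, 18.4 and 17.7 CPM in shCtrl (0.12, SE 0.08, adjusted p = 0.216). Its activator DBF4 was higher in all 3 shPRSS22 libraries (21.2 to 22.02 CPM) than in shCtrl (19.7 to 20.9 CPM), by a difference that did not pass (0.09, SE 0.07, adjusted p = 0.324). MCM10 ranged from 4.96 to 7.79 CPM in shPRSS22 and from 6.94 to 7.41 CPM in shCtrl. Of the genes that protect and tether the fork, WDHD1, which links the helicase to polymerase alpha, fell: it had 19.4, 16.6 and 18.3 CPM in shPRSS22, against 22.4, 20.3 and 22.5 CPM in shCtrl (-0.26, SE 0.08, adjusted p = 0.00676). WDHD1 lost its call without shPRSS22 replicate 2 (-0.20, adjusted p = 0.0567). TIMELESS, a fork protection factor, had 24.6 to 29.5 CPM in shPRSS22 and 29.9 to 31.0 CPM in shCtrl, without overlap (-0.15, adjusted p = 0.0835), and passed as lower without shPRSS22 replicate 1 (-0.20, adjusted p = 0.0354). Without shPRSS22 replicate 3 the log2 fold change of TIMELESS was -0.07 (adjusted p = 0.461).

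**Figure D3:**
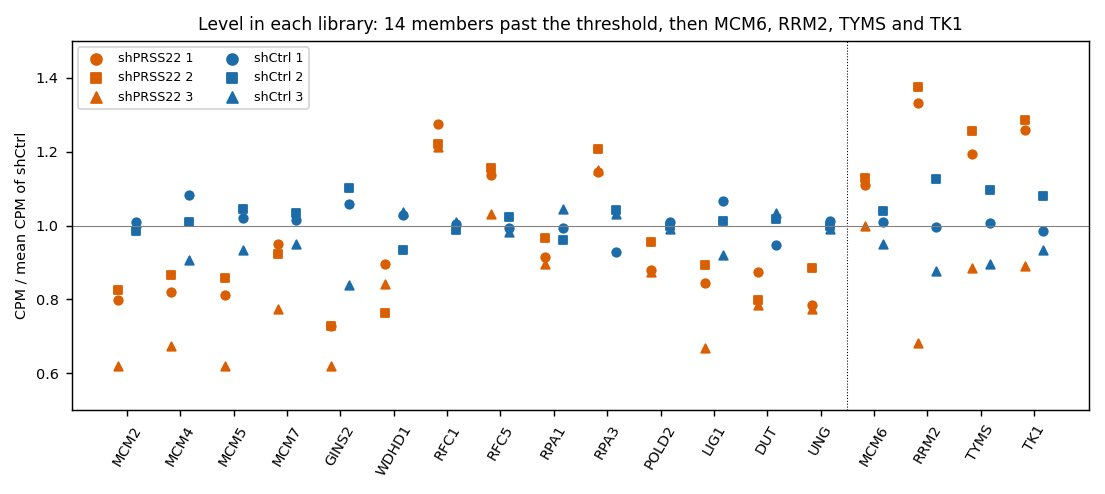
CPM of each library divided by the mean CPM of the 3 shCtrl libraries (vertical axis, no unit), for the 14 genes past the threshold and, right of the dotted line, MCM6, RRM2, TYMS and TK1; orange is shPRSS22, blue is shCtrl, and the marker gives the replicate number. For RRM2, TYMS and TK1, shPRSS22 replicates 1 and 2 lie above and replicate 3 below all shCtrl points, whereas MCM2 is lower in all 3.

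Of the 3 genes that rose, RFC1 alone kept its call with any 1 of the 6 libraries left out. RFC1, the large subunit of the loader that opens PCNA around DNA, had 146, 139 and 139 CPM in the shPRSS22 libraries, against 115, 113 and 115 CPM in the shCtrl libraries. The groups did not overlap, and the log2 fold change was 0.31 (SE 0.04, adjusted p = 5.16e-08), between 0.28 and 0.32 with any 1 library left out. RFC1 lies on chromosome 4, minus strand, at 39287456 to 39366375 (GRCh38, GENCODE 29) and shares no exonic base with another annotated gene. It took 32.6% to 35.9% of the summed RFC1-5 TPM in shPRSS22, against 29.6% to 31.5% in shCtrl.

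RFC5, a small subunit of the loader, had 40.6, 41.3 and 36.8 CPM in shPRSS22, against 35.5, 36.6 and 35.2 CPM in shCtrl (0.15, SE 0.06, adjusted p = 0.0417). That call held without shPRSS22 replicate 3 (adjusted p = 0.0103) and was lost when any of the other 5 libraries was left out (adjusted p between 0.0581 and 0.147), and its estimated counts carried decimals in all 6 libraries. RFC2 (-0.05), RFC3 (-0.11) and RFC4 (0.08) were not called. PCNA, the sliding clamp, had the most abundant transcript of the 54 per length, at 114 ± 5.90 TPM in shPRSS22 and 112 ± 8.21 TPM in shCtrl (SD, n = 3 each). Its levels of 70.9, 71.8 and 64.7 CPM in shPRSS22, against 71.9, 70.7 and 62.3 CPM in shCtrl, gave a log2 fold change of 0.02 (SE 0.05).

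RPA, the trimer that covers single-stranded DNA, held members that moved in opposite directions by small amounts. RPA3, the small subunit, had 15.9, 16.8 and 16.0004 CPM in shPRSS22, against 12.9, 14.5 and 14.3 CPM in shCtrl, with no overlap (0.22, SE 0.08, adjusted p = 0.0353). RPA1, the large subunit that binds DNA, had 122, 128.4 and 119 CPM in shPRSS22, against 132, 128.04 and 139 CPM in shCtrl, and the groups overlapped (-0.11, SE 0.04, adjusted p = 0.0231). RPA3 lost its call without shCtrl replicate 1 (0.171) or shPRSS22 replicate 2 (0.1), and RPA1 lost its call without shCtrl replicate 3 (0.18), shPRSS22 replicate 1 (0.0674) or shPRSS22 replicate 3 (0.0954). RPA2 was not called, at 50.1 to 54.03 CPM in shPRSS22 and 51.7 to 54.7 CPM in shCtrl. RPA3 took 11.0% to 11.3% of the summed RPA TPM in shPRSS22, against 8.85% to 9.72% in shCtrl.

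Among 9 polymerase and primase genes 1 fell (11.1%, against 19.3% of all genes tested) and 8 did not pass. Their median was -0.04, between -0.10 without shPRSS22 replicate 2 and 0.01 without shPRSS22 replicate 3. POLD2, the accessory subunit that holds polymerase delta together, had 68.0, 73.7 and 67.6 CPM in shPRSS22, against 77.9, 77.2 and 76.6 CPM in shCtrl, with no overlap (-0.15, SE 0.04, adjusted p = 0.00921). The catalytic subunits POLA1 (-0.10), POLD1 (-0.02) and POLE (-0.01) did not pass. POLE2, the second subunit of polymerase epsilon, had the largest fold change of any gene that did not pass, with 3.48, 2.89 and 2.61 CPM in shPRSS22 against 4.14, 3.43 and 4.10 CPM in shCtrl (-0.38, SE 0.17, adjusted p = 0.0881). PRIM1, the catalytic subunit of primase, had 13.4, 13.6 and 10.4 CPM in shPRSS22, against 10.8, 11.4 and 10.5 CPM in shCtrl (0.20, SE 0.10, adjusted p = 0.133), and passed as higher without shPRSS22 replicate 3 (0.31, adjusted p = 0.0153).

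Of the genes that finish Okazaki fragments, LIG1, the ligase that seals them, had 10.6, 11.2 and 8.42 CPM in shPRSS22, against 13.4, 12.7 and 11.6 CPM in shCtrl (-0.32, SE 0.11, adjusted p = 0.0167). LIG1 lost its call without shPRSS22 replicate 3 (-0.20, adjusted p = 0.137), shCtrl replicate 1 (0.0875) or shCtrl replicate 2 (0.0524). FEN1, the flap nuclease, had 30.6, 29.7 and 23.1 CPM in shPRSS22, against 27.8, 26.9 and 24.98 CPM in shCtrl, and shPRSS22 replicate 3 was the lowest and replicate 1 the highest of the 6 (0.06, SE 0.09). CHAF1A (-0.06) and CHAF1B (0.05), subunits of the CAF-1 histone chaperone that packs new DNA, were not called. MCM8, a helicase of recombination repair that stands outside the MCM2-7 ring, had a log2 fold change of 0.05 (SE 0.09).

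UNG encodes uracil DNA glycosylase, which removes uracil from DNA, and DUT the dUTPase that keeps dUTP from being built in. Both fell. UNG had 45.9, 51.8 and 45.3 CPM in shPRSS22, against 59.2, 58.4 and 58.0 CPM in shCtrl (-0.30, SE 0.05, adjusted p = 3.14e-05). DUT had 20.1, 18.4 and 18.1 CPM in shPRSS22, against 21.8, 23.4 and 23.8 CPM in shCtrl (-0.29, SE 0.07, adjusted p = 0.00214). For both, every shPRSS22 value lay below every shCtrl value. Both kept their calls with any 1 library left out.

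The other 4 nucleotide genes were not called with all 6 libraries, and the median of the 5 was 0.15, or 0.29 without shPRSS22 replicate 3. RRM2, the small subunit of ribonucleotide reductase, had 42.2, 43.6 and 21.6 CPM in shPRSS22, against 31.6, 35.7 and 27.8 CPM in shCtrl. The shPRSS22 libraries held both the highest values and the lowest, and RRM2 had the widest SE of the 54 genes (0.18, SE 0.32, adjusted p = 0.718). TYMS, thymidylate synthase, had 24.4, 25.6 and 18.1 CPM in shPRSS22, against 20.6, 22.4 and 18.3 CPM in shCtrl (0.15, SE 0.13, adjusted p = 0.373), but 46.6% of its exonic bases are shared with ENOSF1 or TYMSOS. TK1, thymidine kinase 1, had 37.2, 38.1 and 26.3 CPM in shPRSS22, against 29.2, 32.0 and 27.6 CPM in shCtrl (0.19, SE 0.16, adjusted p = 0.407). RRM1, the large reductase subunit, had 40.0, 39.6 and 31.6 CPM in shPRSS22, against 38.0, 38.8 and 39.7 CPM in shCtrl (-0.07, SE 0.07).

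Without shPRSS22 replicate 3, 10 of the 54 genes were higher and 8 lower, where 17.5% and 17.1% of 13197 genes tested were. The 7 genes that then passed as higher were RRM2 (log2 fold change 0.44, adjusted p = 2.42e-05), TK1 (0.35, adjusted p = 9.29e-05), TYMS (0.29), PRIM1 (0.31), GINS1 (0.27), FEN1 (0.18) and MCM6 (0.16). The 3 that no longer passed as lower were MCM7, RPA1 and LIG1. MCM2, MCM4, MCM5, GINS2, RFC1, POLD2, DUT and UNG, 8 of the 14 genes called, kept their call and direction with any 1 of the 6 libraries left out. Across those settings the log2 fold change ranged from -0.49 to -0.30 for MCM2 and from -0.64 to -0.45 for GINS2.

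**Figure D4:**
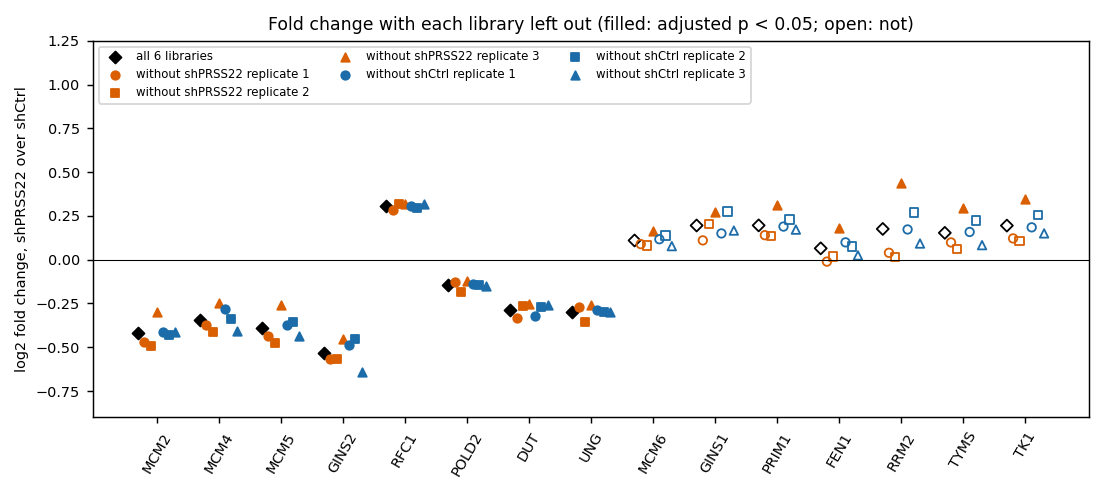
Log2 fold change, shPRSS22 over shCtrl, with all 6 libraries (black diamonds) and with each library left out (orange for a shPRSS22 and blue for a shCtrl library); filled points had an adjusted p under 0.05. The 8 genes at the left stay filled in every setting, and the 7 at the right, from MCM6 to TK1, are filled only where shPRSS22 replicate 3 is left out.

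Within shPRSS22, replicate 3 was also the low library for genes of cell division. Taking for each gene its log2 CPM relative to the mean of the 6 libraries, the mean over the 54 replication genes was 0.04, 0.05 and -0.17 in shPRSS22 replicates 1 to 3, against 0.03, 0.07 and -0.01 in shCtrl replicates 1 to 3. For the 5 nucleotide genes it was 0.17, 0.17 and -0.31 in shPRSS22, against -0.03, 0.08 and -0.08 in shCtrl. For the MCM2-7 genes it was -0.03, -0.00 and -0.31 in shPRSS22, against 0.15, 0.15 and 0.04 in shCtrl, and the groups did not overlap. For 25 mitosis and G2/M genes, which mark dividing cells, it was 0.36, 0.35 and -0.24 in shPRSS22, against -0.13, -0.03 and -0.31 in shCtrl. Of these 25, 10 were higher in shPRSS22, where 19.9% of all genes were. Without shPRSS22 replicate 3, 22 were higher, where 17.5% of all genes were. That library was the lowest of its group for this list, so leaving it out was bound to raise the fold changes on average. None of the 25 was lower in edgeR, in DESeq2 or at an unadjusted p under 0.05 (0 in each). None was at 0 counts, and their sum ranged from 291 to 431 CPM in shPRSS22 and from 277 to 330 CPM in shCtrl. The part of these genes in the results for the replication genes was not tested.

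**Figure D5:**
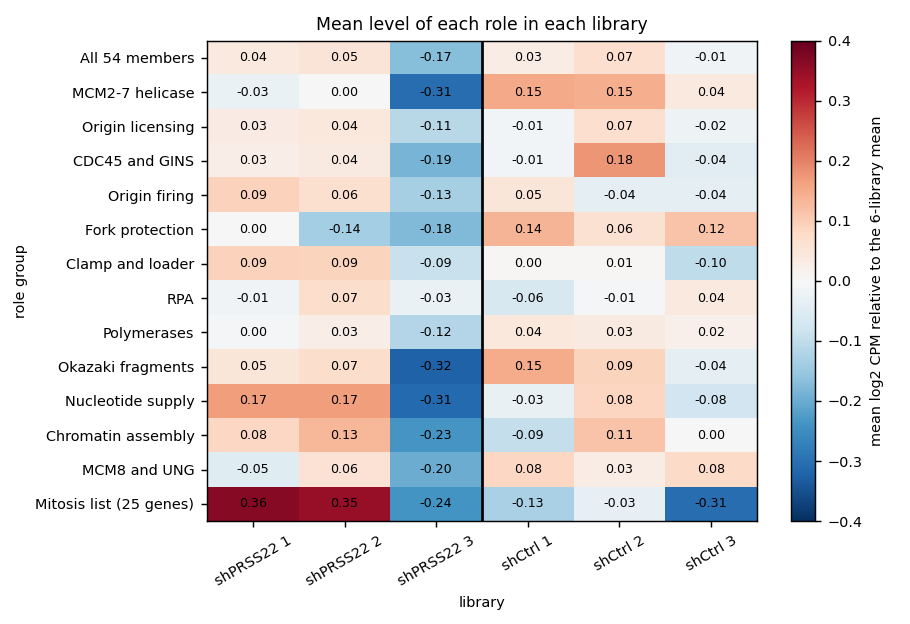
Mean log2 CPM of each role group in each library, relative to the mean of the 6 libraries (colour and printed value); columns are libraries, shPRSS22 left of shCtrl, and the bottom row is the list of 25 mitosis genes. The MCM2-7 row is lower in all 3 shPRSS22 libraries (-0.31 at the lowest) than in shCtrl, while the nucleotide row is high in shPRSS22 replicates 1 and 2 (0.17 each) and low in replicate 3 (-0.31).

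A further list of 45 genes of replication and nucleotide metabolism outside the 54 was all measured, and 4 rose, 5 fell and 36 did not pass (median log2 fold change 0.00). These are 8.89% higher and 11.1% lower, against 19.9% and 19.3% of all genes tested. Without shPRSS22 replicate 3, 10 rose (22.2%) and 4 fell (8.89%), against 17.5% and 17.1% of all genes. The mean relative level of this list was 0.07, 0.04 and -0.11 in shPRSS22 replicates 1 to 3. Leaving out replicate 3 was therefore bound to raise its fold changes on average. ASF1A, a histone chaperone of the replication fork, had 55.02, 51.7 and 52.5 CPM in shPRSS22, against 42.7, 40.6 and 43.0 CPM in shCtrl (0.33, SE 0.05, adjusted p = 4.26e-06). SAMHD1, which breaks down deoxynucleotides (0.18), and RRM2B, the reductase subunit induced by p53 (0.13), also rose, both with no overlap. RECQL4, a helicase that helps fire origins, rose with overlapping groups, at 23.4, 19.7 and 16.5 CPM in shPRSS22 against 14.8, 16.8 and 14.4 CPM in shCtrl (0.37, SE 0.11, adjusted p = 0.00881).

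MCMBP, which binds MCM proteins, fell: it had 110, 114 and 102 CPM in shPRSS22, against 128, 122 and 126 CPM in shCtrl (-0.21, SE 0.04, adjusted p = 0.000129). The salvage enzymes DCK, deoxycytidine kinase (-0.28, adjusted p = 0.000387), and DCTD, dCMP deaminase (-0.20, adjusted p = 0.000524), fell, as did CTPS2, a CTP synthase (-0.20), and POLD4, a small subunit of polymerase delta (-0.25, adjusted p = 0.00876), all with no overlap. CTPS2, named after its value was seen, kept its call only without shCtrl replicate 2 or shPRSS22 replicate 2 (adjusted p = 0.0368 and 0.04), and reached 0.188 without shCtrl replicate 3. RECQL4 lost its call without shCtrl replicate 1 (0.0501) or shPRSS22 replicate 1 (0.0523), and POLD4 without shCtrl replicate 2 (0.116) or shPRSS22 replicate 3 (0.054).

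DESeq2 and the authors' own comparison called fewer genes. DESeq2 called 1 of the 54 higher and 8 lower, where it called 14.7% and 13.4% of all genes; MCM7, LIG1, RPA1, RPA3 and RFC5 were lost. The authors' deposited table lists 1 of the 54, RFC1, as higher and 6 as lower by its q-values at the same threshold, where 9.69% and 8.89% of its genes were. The 6 are MCM2, MCM4, MCM5, GINS2, DUT and UNG, and the authors' deposited table gives log2 fold changes of -0.42 for MCM2, -0.53 for GINS2 and 0.31 for RFC1.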

How the data were processed

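Poly(A) RNA of 3 shPRSS22 and 3 shCtrl libraries of HCT116 cells was measured. The authors deposited 1 table of estimated counts and of TPM values per library, beside their own comparison, given as log2 fold changes with p-values and q-values, per the file headers. The submitters' processing notes list R 4.3.1, DESeq2 1.4.5, RSEM 1.3.1, HISAT2 2.2.1, FastQC 0.12.1 and Bowtie2 2.3.4.3, as well as the build GRCh38.p13, without their roles. No strand marking is described in the labels' protocols, and 24 of the 54 genes share exonic bases with another gene, 9 of them over 10%. The 9 are TYMS (46.6%), POLA2 (35.1%), MCM2 (23.6%), GINS4 (23.6%), PRIM1 (21.6%), RRM2 (20.2%), DUT (14.5%), GINS3 (10.9%) and RFC5 (10.6%). Among these, estimated counts carried decimals in all 6 libraries for TYMS and RFC5, in 4 for POLA2 and in none for the others.

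The expected counts were rounded and tested with edgeR 4.0.16 (R 4.3.3; filterByExpr, TMM, robust glmQLFit, glmQLFTest) on 13104 genes, with Benjamini-Hochberg adjustment over all of them and a threshold of 0.05. The SE is the log2 fold change divided by the square root of F. CPM is TMM-scaled. On simulated data the test recovered 84% to 96% of genes changed by 0.5 or 1 on the log2 scale among 13041 genes. Of the 54 genes only GINS2 changed by more than 0.5. Smaller changes, such as those of the other genes called here, were not simulated. Nor was a library that is shifted for a set of genes, as shPRSS22 replicate 3 was, so the rate does not give the power for these results. DESeq2 1.42.0 and the settings listed below were alternatives. Genes, roles and lists were chosen with earlier results of these data known. Named were PRSS22, genes past the threshold, the 6 largest changes not past it, the most abundant gene of each role and up to 4 genes per direction of the further list; others were named to describe a role, after their values were seen. The labels do not say whether the replicate numbers pair the libraries, and the main test did not pair them.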

Additional observations from a re-analysis of the deposited data

How the results depend on the processing

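The fall of PRSS22 and the direction of all 14 replication genes called here held under every alternative: DESeq2 size factors or library totals for scaling, no low-count filter, DESeq2, the replicate number as a block, and each of the 6 libraries left out. Scaling and filter left the counts at 3 higher and 11 lower. Genes higher numbered 1 with DESeq2 and 5 with the replicate number as a block, and ranged from 1 to 10 with a library left out, 1 without shCtrl replicate 1 and 10 without shPRSS22 replicate 3. Genes lower ranged from 8 to 11 with a library left out and were 8 with DESeq2 and 12 with the block. The block added MCM6 and TK1 as higher and ORC5 as lower. The correlation of deviations between libraries of the same number was 0.02, 0.03 and 0.09, and between libraries of unlike number it ranged from -0.11 to 0.08. With 3 libraries per group, these values cannot show whether the numbers pair them. With a library left out, the median of the licensing genes ranged from -0.046 without shCtrl replicate 1 to 0.056 without shPRSS22 replicate 3, and that of the polymerase genes from -0.096 without shPRSS22 replicate 2 to 0.0077 without shPRSS22 replicate 3. The cause was not tested. Depth limited CDC45, ORC1, POLE2 and POLA2, at under 6 CPM on average, whose SE lay between 0.14 and 0.19.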

Other observations

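Other promoter letters known from cell cycle genes were searched on both strands of the same windows. CCAAT was in a window of 28 of 48 replication genes (58.3%), against 43.5% of 10570 tested genes with a window. The words TTTGAA or TTCGAA, the cell cycle homology region, were in a window of 5 of 48 (10.4%), against 15.51% of tested genes. With all 6 libraries, 5 of the 28 genes with CCAAT fell and 2 rose (median log2 fold change 0.00). Of the 20 without, 4 fell and 16 did not pass (median -0.04). This split was not repeated without shPRSS22 replicate 3. Beside these counts, 19.3% of all genes tested fell and 19.9% rose.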
